A study of Homo sapiens with 8 samples.

Results

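The respiratory chain genes described here are those whose symbols begin with NDUFA, NDUFB, NDUFC, NDUFS or NDUFV followed by a digit, UQCR, COX followed by 4 to 8, or ATP5, together with CYC1, CYCS and the protein-coding genes of mitochondrial DNA. The 115 rows that matched, after 132 symbols with the ending of a pseudogene (P, or P and a number) had been left out, came from a table of 63677 genes. A strict reading of the ending used to drop pseudogenes would also remove MT-ATP6 and MT-ATP8 and leave 113 rows. Both were kept because they are protein-coding genes of mitochondrial DNA. Of the 115 rows, 93 had at least 10 normalized reads in at least 4 of the 8 libraries and were tested among 19559 genes. They comprised 80 nuclear and 13 mitochondrially encoded genes, and 5 of the 80 nuclear rows (ATP5S, ATP5SL, a read-through and 2 antisense genes) encode no subunit. The rule reads symbols, and the filter reads levels.

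RNA came from LY2 cells, an endocrine-resistant derivative of the MCF-7 breast cancer line, stably expressing short hairpin RNA with no target (shNT, 4 libraries) or short hairpin RNA against NCOA1 (shSRC1, 4 libraries). NCOA1 encodes the nuclear receptor coactivator SRC-1. Cells of both groups were grown with 4-hydroxytamoxifen under 500 ng/mL puromycin, were depleted of steroids for 72 h and then received 4-hydroxytamoxifen for 8 h, so no group was free of the drug. The labels name neither the number of hairpins or clones nor separate cultures, so the spread on which the p-values rest may be technical.

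The respiratory chain of the inner mitochondrial membrane passes electrons from NADH through complexes I, III and IV to oxygen and pumps protons, and complex V uses the proton gradient to make ATP. Most subunits are encoded in the nucleus and imported, while the core membrane subunits are translated inside mitochondria from polycistronic transcripts of mitochondrial DNA. The nuclear genes are known targets of the factors NRF-1 and GABP and of coactivators of the PGC-1 family. The protein TFAM packages mitochondrial DNA and takes part in starting its transcription.

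The libraries held 33771775 to 67022036 reads assigned to genes, the lowest being shSRC1 replicate 2. NCOA1 fell from 4396 ± 137 to 2036 ± 151 normalized reads (log2 fold change -1.11, limma adjusted p = 2.25e-07), while NCOA2 (-0.03, adjusted p = 0.793) and NCOA3 (-0.24, adjusted p = 0.0548) did not pass the threshold. For NCOA3, however, every shSRC1 library lay below every shNT library. All 7 luminal markers were detected. KRT8, KRT18 and KRT19 rose, and GATA3 (0.19), EPCAM (-0.16), ESR1 (-0.13) and FOXA1 (-0.07) did not pass the test, although every shSRC1 library lay below every shNT library for ESR1. Of the 8 fibroblast, 8 leukocyte and 8 muscle or adipose markers, 5, 2 and 1 passed the filter and none of these was called. Fibroblast markers summed to 1634 to 2189 normalized reads in shNT and 1452 to 1978 in shSRC1, most of them from COL1A1. Leukocyte markers summed to 30.5 to 52.0 in shNT and 33.6 to 52.5 in shSRC1, with MS4A1 at 0 in every library. Muscle and adipose markers summed to 15.8 to 40.0 and 24.7 to 41.8. In bulk RNA, fewer cells of a type and less RNA per cell cannot be told apart.

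One library stood apart for the nuclear members. In shNT replicate 3, 70 of the 80 nuclear members had their lowest value of all 8 libraries. Relative to each gene's mean over the libraries, the median log2 level of the nuclear members was -0.08, 0.09, -0.48 and 0.03 in shNT replicates 1 to 4 and 0.11, 0.11, 0.07 and 0.13 in shSRC1 replicates 1 to 4. Thus shNT replicates 2 and 4 lay close to the shSRC1 libraries. The median over all 19559 tested genes was -0.03 in that library. Non-member genes with a longest transcript under 1000 bases had a median of 0.14 there, whereas 73 cytosolic ribosomal protein genes, a set chosen after the data had been seen, had -0.70. In shNT replicates 1, 2 and 4 the ribosomal protein genes stood at -0.19, -0.03 and -0.09, and in shSRC1 at 0.20 to 0.29. The part of this library's composition in the results was not tested, and the main values are given with and without it.

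**Figure D1:**
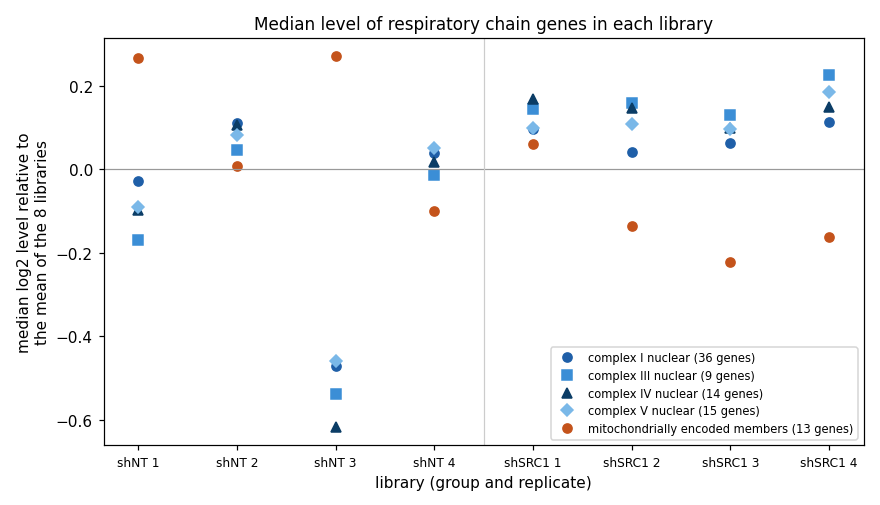
Median log2 level of respiratory chain genes in each library relative to each gene's mean over 8 libraries (y axis), by library (x axis), with 1 symbol per group of genes. Nuclear members of all 4 complexes are lowest in shNT replicate 3, and mitochondrially encoded members are highest in shNT replicates 1 and 3.

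Transcripts of the 2 genomes lay mostly on opposite sides of 0 in the comparison of shSRC1 with shNT. Of the 80 nuclear members, 17 rose, 0 fell and 63 did not pass the limma test at a Benjamini-Hochberg adjusted p of 0.05. Of the 13 mitochondrially encoded members, 0 rose, 2 fell (MT-CO1 and MT-ND1) and 11 did not pass. Over all tested genes, 12.0% were called higher and 11.2% lower, so the nuclear count lies above that background and the mitochondrial count is close to it. At an unadjusted p under 0.05 in limma the counts, with both directions pooled, were 32 nuclear (40.0%) and 4 mitochondrial members (30.8%) beside 37.6% of all tested genes. With directions pooled, neither share stood clear of the background. Shares by direction were not counted at that threshold, so no comparison within a direction can be read from these values. The quasi-likelihood test of edgeR called 15 nuclear members higher (18.8%), 0 lower and 2 mitochondrial members lower (15.4%). It called 11.9% of all genes higher and 11.8% lower. DESeq2 called 21 (26.2%), 0 and 3 (23.1%), beside 13.6% of all genes higher and 13.6% lower. The log2 fold change was positive in 73 of 80 nuclear members and negative in 13 of 13 mitochondrial ones, with medians of 0.20 and -0.23 beside -0.00 for all tested genes. In 26 nuclear members every shSRC1 library lay above every shNT library, where 16.9% of all tested genes did so. The reverse held for 1 mitochondrial member, MT-CO1, against a background of 12.1%.

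Without shNT replicate 3 the nuclear median dropped to 0.09, with 60 of 79 values positive, and the mitochondrial median moved to -0.16, with 13 of 13 negative. The number of nuclear members called higher was again 17, of which 15 were also called with all libraries, beside a background of 11.2% called higher and 10.4% called lower. Lost were UQCRH and UQCRC1, and COX4I1 and UQCR10 were gained. NDUFB8, an accessory subunit of complex I singled out here after its values were seen, was then called lower (-0.31, limma adjusted p = 0.0185). MT-CO1 alone of the mitochondrial members was then called. Leaving out shNT replicate 1 instead gave 8 nuclear members higher (10.0% of the 80, where 9.30% of all genes tested were higher), leaving out shNT replicate 2 gave 27 (33.8%, background 2525 of 19359 genes), and leaving out shNT replicate 4 gave 16 (background 10.5%). The count was 4, 7, 8 and 7 without shSRC1 replicates 1 to 4 in turn, or 5.00% to 10.0% of the 80 beside backgrounds of 8.53%, 8.69%, 8.98% and 8.70%. Without shNT replicate 1 or any 1 of the shSRC1 libraries, the share of nuclear members called higher was therefore near or below that of all genes.

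**Figure D2:**
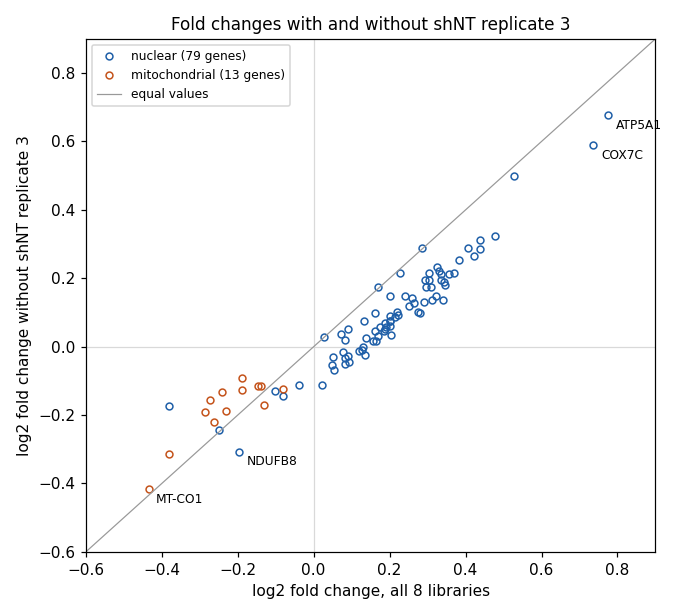
Log2 fold change of each member with all 8 libraries (x axis) and without shNT replicate 3 (y axis), for 79 nuclear and 13 mitochondrially encoded genes, with a line of equal values. Most nuclear members lie below the line, while ATP5A1, COX7C and MT-CO1 keep values of 0.68, 0.59 and -0.42 without that library.

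As a share of all reads assigned to genes, the 13 mitochondrially encoded members took 6.80%, 5.77%, 7.31% and 5.39% in shNT replicates 1 to 4. In the shSRC1 libraries they took 5.51%, 5.02%, 4.84% and 4.82%. The groups overlapped, since shNT replicate 4 lay below shSRC1 replicate 1, and the means were 6.32% ± 0.89 and 5.05% ± 0.32 (SD, n = 4 each). Nuclear members together took 0.876%, 0.978%, 0.734% and 0.947% in shNT and 0.986%, 1.03%, 1.01% and 1.05% in shSRC1. These shares did not overlap, but shNT replicate 2 was nearly level with shSRC1 replicate 1. Mitochondrial reads per nuclear member read were 7.77, 5.90, 9.96 and 5.70 in shNT against 5.59, 4.88, 4.80 and 4.61 in shSRC1, with the highest values in shNT replicates 1 and 3. Per kb of transcript, every mitochondrial member stood above every nuclear one in shNT cells, from 103113 normalized reads per kb for MT-ND3 upwards, against at most 35534 for the nuclear ATP5J2.

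**Figure D3:**
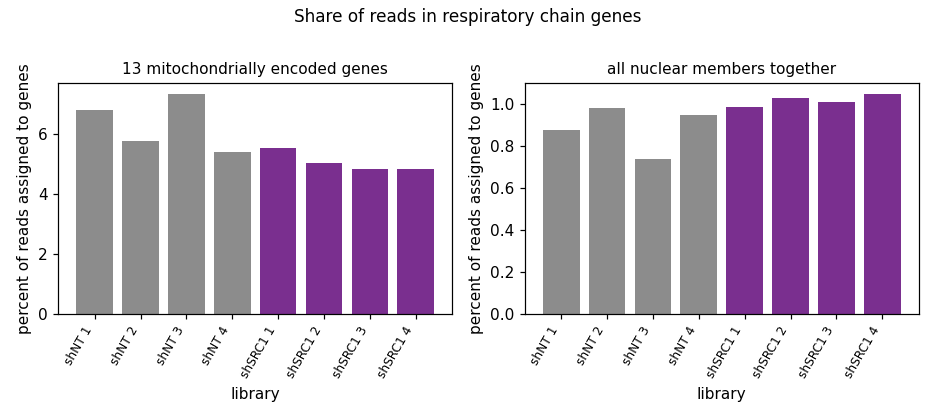
Percent of reads assigned to genes that fell in the 13 mitochondrially encoded members (left) and in all nuclear members (right), as 1 bar per library. The mitochondrial share spans 5.39% to 7.31% in shNT and 4.82% to 5.51% in shSRC1, and the nuclear share is lowest in shNT replicate 3.

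The letters upstream of the genes were examined for the binding words of NRF-1 and GABP, named above, and of a further factor, YY1. RefSeq promoter windows on GRCh38.p14 were found for 62 of the 75 tested nuclear subunit genes, and the 250 bases before each annotated start were searched on both strands. The NRF-1 word GCATGCGC was present in 12 of the 62 genes (19.4%) and in 3.22% of all 27305 genes with a window. The GABP word CCGGAAG, of the ETS family, was present in 15 of the 62 (24.2%) and in 10.2% of all, and the YY1 word AAGATGGC in 1 of the 62 (1.61%) and in 1.64% of all. The GABP and YY1 words share the letters AAG and can overlap. Among the 11 called subunit genes with a window, 1 held the NRF-1 word and 4 the GABP word, and among the 51 that were not called 11 held each. A match describes letters in the window and not a bound site. The windows shown belong to the members with the largest rises, to UQCR11, which holds the GABP word on both strands, and to CYCS, which holds the NRF-1 word and did not pass the test. They are written 5′ to 3′ in the direction of transcription, with matched words in capitals. For UQCR11 the matches begin 117 and 97 bases before the start, for ATP5A1 (1 of 2 windows, listed as ATP5F1A) 48 bases and for CYCS 169 bases before it, and COX7C holds none of the words. The ATP5A1 window shown was picked for its match, and the other ATP5A1 window holds none of the words. The windows cover chr18:46098297-46098546 (minus strand) for ATP5A1, chr5:86617691-86617940 (plus strand) for COX7C, chr19:1605463-1605712 (minus strand) for UQCR11 and chr7:25125261-25125510 (minus strand) for CYCS.
ATP5A1: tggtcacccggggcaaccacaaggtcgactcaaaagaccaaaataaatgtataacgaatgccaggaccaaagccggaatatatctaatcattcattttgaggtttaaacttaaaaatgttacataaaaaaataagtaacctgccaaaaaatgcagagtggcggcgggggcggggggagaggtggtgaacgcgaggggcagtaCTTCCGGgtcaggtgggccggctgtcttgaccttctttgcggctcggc
COX7C: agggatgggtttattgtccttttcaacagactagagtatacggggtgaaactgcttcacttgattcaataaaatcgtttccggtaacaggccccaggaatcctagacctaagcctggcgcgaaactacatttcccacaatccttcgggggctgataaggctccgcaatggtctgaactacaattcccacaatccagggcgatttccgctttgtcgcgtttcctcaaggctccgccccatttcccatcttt
UQCR11: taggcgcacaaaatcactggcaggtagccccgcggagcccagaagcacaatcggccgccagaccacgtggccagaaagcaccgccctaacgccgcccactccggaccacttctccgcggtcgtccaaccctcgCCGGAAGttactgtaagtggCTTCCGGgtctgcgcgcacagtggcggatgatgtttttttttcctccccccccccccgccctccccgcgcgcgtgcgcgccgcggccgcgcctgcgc
CYCS: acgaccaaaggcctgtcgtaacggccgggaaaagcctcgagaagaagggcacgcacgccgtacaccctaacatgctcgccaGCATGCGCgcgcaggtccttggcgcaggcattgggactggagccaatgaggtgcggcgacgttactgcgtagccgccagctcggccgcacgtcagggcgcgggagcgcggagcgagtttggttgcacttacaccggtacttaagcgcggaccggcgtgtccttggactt

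Complex I, which oxidizes NADH and reduces ubiquinone, showed 3 of 36 tested nuclear members higher (8.33%, below the 12.0% of all tested genes) and 0 lower, with a median log2 fold change of 0.19 (0.06 without shNT replicate 3). The accessory subunit gene NDUFB1 (chromosome 14) held 4010, 4322, 3187 and 4215 normalized reads in shNT replicates 1 to 4 and 4872, 4790, 4599 and 4882 in shSRC1 replicates 1 to 4. The accessory subunit gene NDUFS5 (chromosome 1) held 4536, 4971, 3199 and 4677 in shNT and 5225, 5455, 5229 and 5753 in shSRC1. For both, the groups did not overlap and shNT replicate 3 was the lowest library. NDUFB1 rose from 3933 ± 514 to 4786 ± 131 and NDUFS5 from 4346 ± 786 to 5415 ± 250 (mean ± SD, n = 4 each). Their log2 fold changes were 0.29 (SE 0.10, limma adjusted p = 0.0385) and 0.34 (SE 0.12, limma adjusted p = 0.0492). Both calls were lost without shNT replicate 1 or without any 1 of the shSRC1 libraries, and that of NDUFS5 also without shNT replicate 4. The adjusted p then ran up to 0.0831 for NDUFB1 and 0.12 for NDUFS5. NDUFB1 also lost its call with no filter on low values (0.0557), and NDUFS5 after correction for length and GC content (0.169), with scaling by reads outside the mitochondrial genome (0.0665) and in edgeR (0.0520). Chromosome 14, which holds NDUFB1 and ATP5S, had 20.7% of 658 tested genes called higher. Whether the position has a part in their values was not tested.

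The nuclear core subunits include those that carry the flavin and iron-sulfur clusters of the electron path. The nuclear core genes described here did not pass the test. NDUFV1, which binds NADH, stood at 8295 ± 694 in shNT and 8782 ± 652 in shSRC1 normalized reads (log2 fold change 0.08, limma adjusted p = 0.507). NDUFS1, the largest core subunit, stood at 10635 ± 511 in shNT and 9908 ± 495 in shSRC1 (-0.10, adjusted p = 0.35). The core genes NDUFV2, NDUFS3, NDUFS7 and NDUFS8 had log2 fold changes of 0.17, 0.20, 0.16 and 0.17. At the ends of the range lay NDUFB11 at 0.35 (adjusted p = 0.0698) and NDUFA5 at -0.25 (adjusted p = 0.0739), neither past the threshold in limma. NDUFA5, an accessory subunit, held 2258, 2530, 2520 and 2680 in shNT and 1797, 2003, 2351 and 2279 in shSRC1. Its groups overlapped, shSRC1 replicates 3 and 4 being above shNT replicate 1, and here shNT replicate 3 was not low. NDUFB8 held 720, 801, 568 and 794 in shNT and 640, 607, 623 and 621 in shSRC1. Replicate 3 of shNT lay below all shSRC1 values and the other 3 shNT libraries above them, and the log2 fold change with all libraries was -0.20 (limma adjusted p = 0.209). NDUFB8 lies on chromosome 10, where 30.4% of 716 tested genes were called lower and the median log2 fold change was -0.20. Whether the position has a part in its values was not tested.

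Complex III, which passes electrons from ubiquinol to cytochrome c, showed 5 of 9 nuclear members higher (55.6%, background 12.0%) and 0 lower, with a median log2 fold change of 0.34 (0.22 without shNT replicate 3, 4 higher). UQCRFS1 (chromosome 19), the Rieske iron-sulfur protein, held 5803, 6636, 4382 and 6232 normalized reads in shNT replicates 1 to 4 and 7300, 7901, 7512 and 8172 in shSRC1 replicates 1 to 4. The groups were separate, with shNT replicate 3 lowest and shSRC1 replicate 4 highest. It rose from 5763 ± 982 to 7721 ± 390 (n = 4 each), by a log2 fold change of 0.44 (95% confidence interval 0.20 to 0.68, limma adjusted p = 0.012), and 0.31 without shNT replicate 3. The small subunit gene UQCR11 (chromosome 19) held 1456, 1722, 1030 and 1581 in shNT and 2031, 1965, 1938 and 1989 in shSRC1. Its shSRC1 libraries lay within a narrow band above all shNT libraries. It rose by 0.48 (SE 0.13, limma adjusted p = 0.0153), and the call was lost only without shSRC1 replicate 1 (adjusted p = 0.0503) among the single libraries left out.

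UQCRQ (chromosome 5), a small subunit of the same complex, held 5758, 6980, 4226 and 6694 in shNT and 8452, 7700, 7444 and 7903 in shSRC1. UQCRC1 (chromosome 3), a core protein, held 6705, 7385, 5083 and 7365 in shNT and 9478, 8135, 7650 and 7993 in shSRC1. In both genes the groups were separate and shSRC1 replicate 1 was the highest library. UQCRH (chromosome 1), the hinge protein near cytochrome c1, held 6087, 7109, 4882 and 6593 in shNT and 7090, 7644, 7488 and 8554 in shSRC1. For UQCRH the groups overlapped by a small margin, shSRC1 replicate 1 being below shNT replicate 2. The log2 fold changes were 0.44, 0.34 and 0.33 (limma adjusted p = 0.0272, 0.0469 and 0.0401), and without shNT replicate 3 they were 0.29, 0.21 and 0.22 (adjusted p = 0.0161, 0.0633 and 0.0538). UQCRQ lost its call without shNT replicate 1 or shSRC1 replicate 1 or 4 (up to 0.0812), and UQCRH and UQCRC1 without either of shNT replicates 1 and 3 or any shSRC1 library (up to 0.114 and 0.14). Correction for length and GC content ended the calls of UQCRQ (adjusted p = 0.0901) and UQCRH (0.136), and scaling by reads outside the mitochondrial genome those of UQCRH (0.0575) and UQCRC1 (0.0582). CYC1, the cytochrome c1 gene on chromosome 8, held 14768, 16317, 10164 and 16096 in shNT and 17371, 15165, 14938 and 14528 in shSRC1. Its values overlapped, with 0.13 as the log2 fold change (limma adjusted p = 0.478) and -0.02 without shNT replicate 3. The smallest nuclear value of the complex was that of UQCRB, 0.09 (adjusted p = 0.481).

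CYCS (chromosome 7), which encodes the mobile carrier cytochrome c, held 10780, 11927, 10487 and 12011 normalized reads in shNT and 10183, 11456, 12377 and 13718 in shSRC1. The groups overlapped, and shSRC1 libraries were both the lowest and the highest. The log2 fold change was 0.07 with a 95% confidence interval of -0.13 to 0.28 (limma adjusted p = 0.61). CYCS has processed pseudogenes that could share its reads, as do many short nuclear members, so these levels are uncertain.

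Complex IV, cytochrome c oxidase, showed 4 of 14 nuclear members higher (28.6%, background 12.0%) and 0 lower, with a median log2 fold change of 0.29 (0.13 without shNT replicate 3). COX7C (chromosome 5), a small membrane subunit, held 10278, 11705, 7279 and 10843 normalized reads in shNT replicates 1 to 4 and 15807, 16619, 16077 and 17340 in shSRC1 replicates 1 to 4. The lowest shSRC1 library stood well above the highest shNT library. COX7C rose from 10026 ± 1923 to 16461 ± 676 (n = 4 each), by a log2 fold change of 0.74 (95% confidence interval 0.48 to 1.00, limma adjusted p = 7.67e-04), and by 0.59 without shNT replicate 3 (adjusted p = 2.88e-05). It was called in all 23 alternative settings, with values of 0.55 to 0.82. COX7A2 (chromosome 6), another small subunit, held 6862, 7855, 4762 and 7438 in shNT and 8641, 8998, 8464 and 9381 in shSRC1. The groups were separate, shNT replicate 3 being far below the others. Its log2 fold change was 0.42 (SE 0.13, limma adjusted p = 0.0295), and the call was lost without shNT replicate 1 or shSRC1 replicate 1, 2 or 4 (up to 0.0805) and after correction for length and GC content (0.0594).

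NDUFA4 (chromosome 7), first assigned to complex I and now counted with complex IV, held 8451, 10095, 6247 and 9393 in shNT and 10277, 10663, 10699 and 11449 in shSRC1. Its paralogue NDUFA4L2 (chromosome 12), a gene known to respond to hypoxia, held 98.4, 96.8, 85.4 and 84.3 in shNT and 159, 140, 124 and 109 in shSRC1. Both genes had separate groups, but in NDUFA4L2 shNT replicate 3 was level with shNT replicate 4. Their log2 fold changes were 0.36 (SE 0.12, limma adjusted p = 0.0479) and 0.53 (SE 0.16, limma adjusted p = 0.03). NDUFA4 lost its call without shNT replicate 1 or any shSRC1 library (up to 0.118), and NDUFA4L2 without shNT replicate 4 or shSRC1 replicate 1, 2 or 3 (up to 0.0878). Scaling by reads outside the mitochondrial genome also ended both calls (adjusted p = 0.0627 and 0.0527), as did edgeR for NDUFA4 (0.0517) and the absence of a filter for NDUFA4L2 (0.0699).

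Several complex IV subunits have tissue isoforms, and LY2 cells carried the widely expressed ones. COX4I1 held 20441 ± 4050 in shNT and 25502 ± 982 in shSRC1 (normalized reads, log2 fold change 0.34, limma adjusted p = 0.0622). COX6A1 held 12668 ± 2799 in shNT and 15014 ± 457 in shSRC1 (log2 fold change 0.28, limma adjusted p = 0.163). COX8A held 7364 ± 1695 in shNT and 8745 ± 589 in shSRC1 (log2 fold change 0.28, limma adjusted p = 0.186). None of these 3 passed the threshold, although the COX4I1 groups did not overlap. The isoform genes COX4I2, COX7A1, COX7B2 and COX8C failed the filter with 9, 57, 19 and 14 reads over all libraries together, and COX6A2, known from heart and muscle, had 0 reads in every library, a count that allows up to 2.67 to 5.25 normalized reads per library. COX6B2, known from testis, barely passed the filter with 9.28, 10.7, 18.6 and 10.8 in shNT and 5.7, 14, 4.54 and 2.75 in shSRC1. Its groups overlapped, and the log2 fold change of -0.93 had a confidence interval of -1.94 to 0.08 (limma adjusted p = 0.164). The widely expressed partners COX6B1, COX7B and COX7A2L had 0.29, 0.22 and 0.19, none past the threshold.

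Complex V, the ATP synthase, showed 3 of 15 nuclear members higher (background 12.0%) and 0 lower, with a median log2 fold change of 0.19 (0.07 without shNT replicate 3). ATP5A1, the alpha subunit of the F1 head, held 15003, 17383, 12357 and 16453 normalized reads in shNT replicates 1 to 4 and 24539, 26162, 25476 and 27828 in shSRC1 replicates 1 to 4. The highest shNT library stood well below the lowest shSRC1 library. The rise was from 15299 ± 2192 to 26001 ± 1388 (n = 4 each), a log2 fold change of 0.78 (95% confidence interval 0.55 to 1.00, limma adjusted p = 1.26e-04), and 0.68 without shNT replicate 3. The call held in all 23 alternative settings. ATP5A1 lies on chromosome 18, where 39.5% of 263 tested genes were called higher and the median log2 fold change was 0.28. The other member on that chromosome, NDUFV2, had 0.17 (limma adjusted p = 0.198). The part of the chromosome in the rise was not tested.

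ATP5B (chromosome 12), the catalytic beta subunit, held 61406, 68683, 47423 and 66280 in shNT and 81345, 80400, 76916 and 81078 in shSRC1. The groups were separate, and shNT replicate 3 was lowest. It rose from 60948 ± 9511 to 79935 ± 2051, by 0.41 (95% confidence interval 0.17 to 0.64, limma adjusted p = 0.0174), and by 0.29 without shNT replicate 3. The remaining F1 subunits ATP5C1, ATP5D and ATP5E had log2 fold changes of 0.08, 0.08 and 0.30, none past the threshold. The genes ATP5G1, ATP5G2 and ATP5G3 encode one and the same mature protein of the c ring, and their values differed. ATP5G2 (chromosome 12) held 12988, 14448, 9626 and 13865 in shNT and 16971, 16316, 15961 and 16375 in shSRC1. The groups of ATP5G2 were separate, and it rose by 0.38 (SE 0.11, limma adjusted p = 0.0237). ATP5G1 held 2839, 2976, 2069 and 2915 in shNT and 3053, 2686, 2776 and 2596 in shSRC1. ATP5G3 held 14486, 16772, 10730 and 16113 in shNT and 16021, 15224, 15084 and 16284 in shSRC1. Both overlapped, at 0.05 (adjusted p = 0.752) and 0.13 (adjusted p = 0.449) in limma. The difference between the paralogues was not tested, and ATP5G2 lost its call without shSRC1 replicate 1, 2 or 4 (up to 0.0663). The smallest value of the complex was that of ATP5J2, 0.02.

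**Figure D4:**
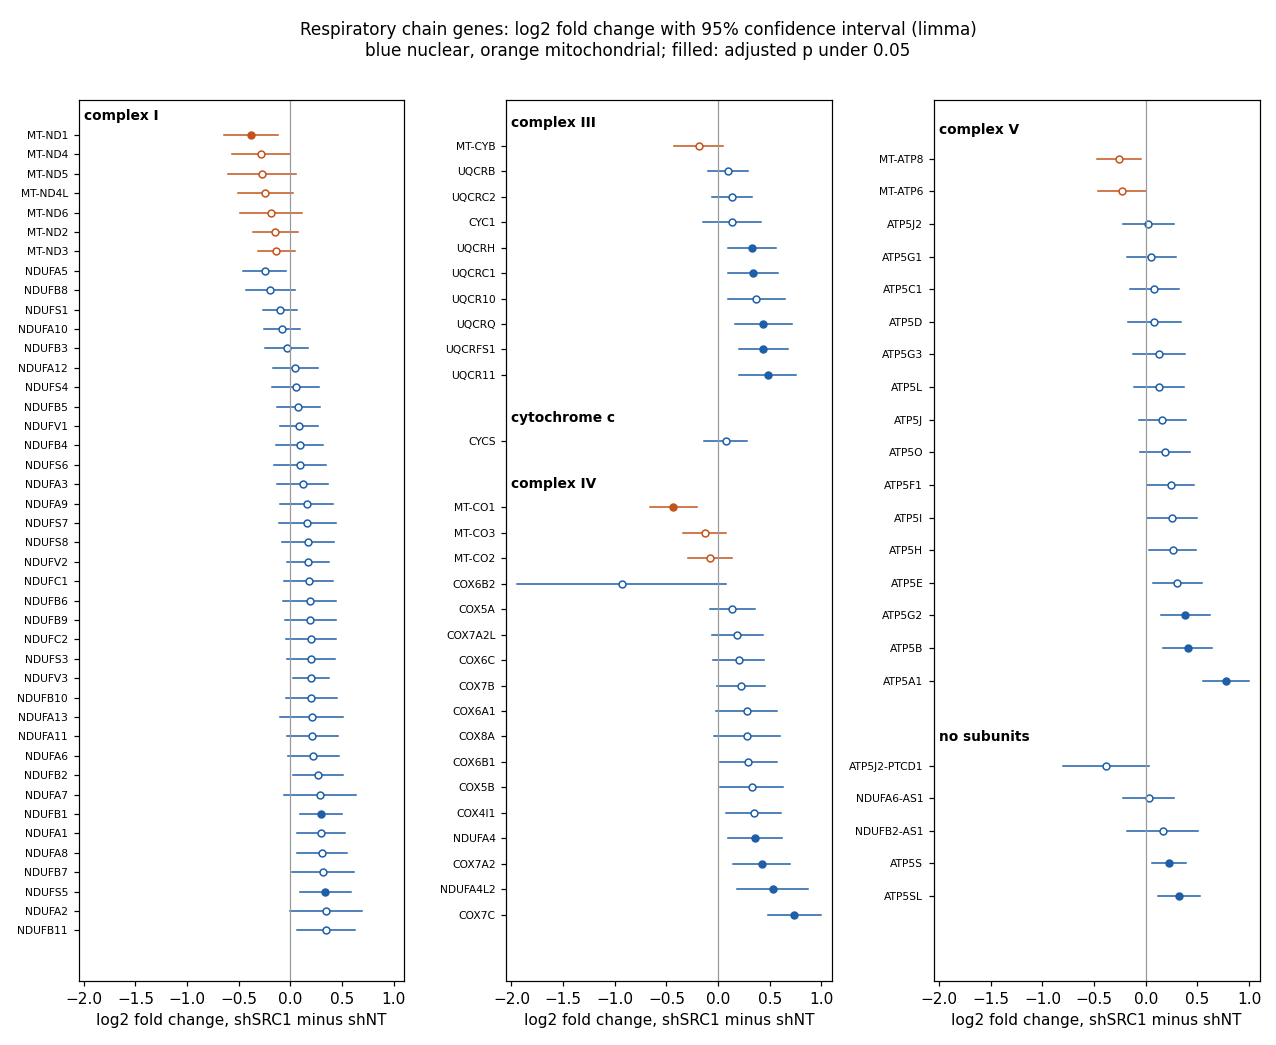
Log2 fold change (shSRC1 minus shNT, x axis) with its 95% confidence interval for 92 of the 93 tested members, by complex, nuclear in blue and mitochondrial in orange, filled where the limma adjusted p is under 0.05. Filled nuclear members lie to the right of 0, and MT-CO1 and MT-ND1 are the filled mitochondrial ones.

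Among the 5 rows that share a prefix but encode no subunit, 2 rose (40.0%, background 12.0%) and 0 fell. ATP5SL, linked to complex I assembly and now named DMAC2, held 2706, 2801, 2131 and 2738 in shNT and 3511, 3156, 3216 and 3055 in shSRC1. ATP5S held 1478, 1646, 1495 and 1508 in shNT and 1811, 1734, 1814 and 1808 in shSRC1. The groups of both were separate, and shNT replicate 3 was low for ATP5SL and not for ATP5S. Their log2 fold changes were 0.32 and 0.23 (limma adjusted p = 0.0247 and 0.0454). The first call was lost without shSRC1 replicate 1 or 3 (up to 0.0715), and the second without shNT replicate 1 or 4 or any shSRC1 library (up to 0.115), with scaling by reads outside the mitochondrial genome (0.118) and with no filter (0.156). The read-through ATP5J2-PTCD1 shares sequence with ATP5J2, and the antisense NDUFA6-AS1 and NDUFB2-AS1 share sequence with coding members. Reads in the shared parts cannot be told apart, for the antisense genes because the strand is not known.

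Of the 22 rows that failed the filter, 16 had 0 reads in all libraries, and 15 of these are further identifiers that repeat the symbol of a tested member, among them 9 of NDUFA3. The remaining 6 were COX4I2, COX7A1, COX7B2, COX8C, ATP5L2 and the read-through NDUFC2-KCTD14. None of the 22 is counted in the results.

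The mitochondrially encoded members were the catalytic core of complex IV, the membrane arm of complex I, cytochrome b and the proton channel of complex V. MT-CO1, the subunit that holds the oxygen-reducing site of complex IV, held 864550, 786363, 828405 and 723255 normalized reads in shNT replicates 1 to 4. In shSRC1 replicates 1 to 4 it held 666404, 580065, 567254 and 556463. Every shSRC1 library was below every shNT library, shSRC1 replicate 1 being the nearest. MT-CO1 fell from 800643 ± 60684 to 592546 ± 50174 (n = 4 each), a log2 fold change of -0.43 (95% confidence interval -0.66 to -0.21, limma adjusted p = 0.0099). The value was -0.42 without shNT replicate 3, and the call held in all 23 alternative settings. The other complex IV core genes had smaller differences. MT-CO2 stood at 407784 ± 26835 in shNT and 385421 ± 23022 in shSRC1 (-0.08, limma adjusted p = 0.575) and MT-CO3 at 321777 ± 20240 in shNT and 293780 ± 20532 in shSRC1 (-0.13, limma adjusted p = 0.34). Their groups overlapped, and whether they differ from MT-CO1 was not tested.

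MT-ND1, a subunit at the quinone entrance of complex I, held 124886, 100513, 124964 and 87230 in shNT and 95168, 79149, 78042 and 80693 in shSRC1. The groups overlapped, since shNT replicate 4 lay below shSRC1 replicate 1. MT-ND1 fell from 109398 ± 18731 to 83263 ± 8011 (n = 4 each), which gave -0.38 as the log2 fold change (SE 0.12, limma adjusted p = 0.0357). Leaving out shNT replicate 1 (adjusted p = 0.111) or 3 (0.0751) ended the call, as did leaving out shSRC1 replicate 2, 3 or 4. MT-ND4 and MT-ND4L, which overlap and could share reads, had -0.29 and -0.24 (limma adjusted p = 0.13 and 0.175). MT-ND2 and MT-ND3 had -0.15 and -0.14 (adjusted p = 0.317 and 0.241). MT-ND5 had -0.27 and MT-ND6 -0.19 (adjusted p = 0.211 and 0.347). MT-ND6 is the coding gene of the opposite strand, and no label calls the libraries stranded, so antisense reads at its place cannot be told apart.

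MT-CYB, the cytochrome b of complex III, stood at 218296 ± 30162 in shNT and 190443 ± 14756 in shSRC1 (-0.19, limma adjusted p = 0.229). The overlapping genes MT-ATP8 and MT-ATP6 of complex V had -0.26 and -0.23 (limma adjusted p = 0.0716 and 0.134). In 11 of the 13 mitochondrial members, shNT replicates 1 and 3 were the highest libraries of all, MT-CO2 and MT-CO3 being the exceptions. In 13 of 13, shSRC1 replicate 1 was the highest of the shSRC1 libraries. Without shNT replicates 1 and 3, a setting chosen after the data had been seen, the mitochondrial median was -0.06, MT-CO1 was the 1 member called lower, and the nuclear median was 0.04 with 6 members higher and 1 lower. In that setting 8.04% of all genes were called higher and 7.27% lower.

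**Figure D5:**
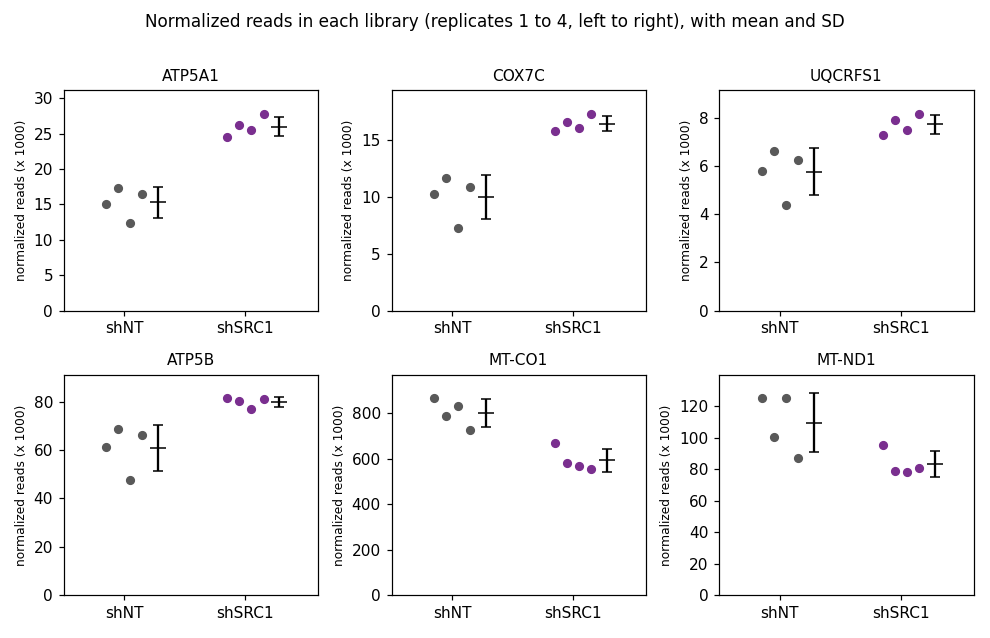
Normalized reads divided by 1000 (y axis) for 6 members in each library (points, replicates 1 to 4 from left to right), with mean and SD beside each group. ATP5A1, COX7C, UQCRFS1 and ATP5B are higher and MT-CO1 is lower in all shSRC1 libraries, while the groups of MT-ND1 overlap.

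Genes that build or supply the chain were read from 8 lists by role. Together they had 12 of 79 tested genes higher (15.2%) and 4 lower (5.06%), beside 12.0% and 11.2% of all tested genes, so the share called higher was near the background. Of the 4 complex II subunits, which feed electrons from succinate, 1 was called: the membrane anchor SDHC rose from 7865 ± 1276 to 10188 ± 417 (log2 fold change 0.39, limma adjusted p = 0.0194), a call lost without shSRC1 replicate 2 or 4 (up to 0.055) and after correction for length and GC content (0.0517). Complex I assembly factors had 2 of 13 higher and 0 lower, with a median of 0.11. NDUFAF3 held 2122, 2380, 1549 and 2382 in shNT and 3435, 3128, 3133 and 3020 in shSRC1, with separate groups and a log2 fold change of 0.61 (limma adjusted p = 0.0025). ECSIT rose by 0.41 (adjusted p = 0.0145), a call lost without shSRC1 replicate 1 (0.054). Complex III assembly factors had 0 of 6 higher and 1 lower, LYRM7, a chaperone of the Rieske protein, which fell by 0.42 on the log2 scale (adjusted p = 0.0199) and lost its call in 3 of 8 settings that leave out 1 library (up to 0.067).

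Complex IV assembly factors had 6 of 20 higher and 0 lower, beside 12.0% and 11.2% of all tested genes, with a median log2 fold change of 0.24. SURF1, which acts on the MT-CO1 module, held 2273, 2483, 1748 and 2416 in shNT and 3327, 3007, 2931 and 3116 in shSRC1. The SURF1 groups were separate, at 0.48 (limma adjusted p = 0.0047). The copper chaperone SCO1, the MT-CO1 assembly factor COX14 and the MT-CO1 translation activator TACO1 rose by 0.44, 0.50 and 0.37 (adjusted p = 0.008, 0.0103 and 0.0192), TACO1 losing its call without shSRC1 replicate 1 (0.0575). SCO2 and COX16 were the other 2 called. LRPPRC, which stabilizes mitochondrial mRNAs, had -0.15 (adjusted p = 0.26). Of 4 genes for ATP synthase assembly and inhibition, ATPAF2, a chaperone of the alpha subunit, rose from 1148 ± 129 to 1577 ± 128 (0.46, limma adjusted p = 0.0046). ATPAF2, SCO1 and TACO1 lie on chromosome 17, where 20.1% of 1132 tested genes were called higher. Whether the position has a part in their values was not tested. Of 10 genes of coenzyme Q synthesis, COQ6 rose by 0.34 (adjusted p = 0.0098) and ADCK3 fell by 0.28 on the log2 scale (adjusted p = 0.0389), a call that 6 of 8 settings leaving out 1 library lost (up to 0.112), as did the absence of a filter (0.0916).

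Genes of mitochondrial DNA and its transcription had 0 of 14 higher and 1 lower, beside 12.0% and 11.2% of all tested genes, with a median of -0.08. TFAM held 3598, 4138, 4108 and 4254 in shNT and 2923, 3062, 3502 and 3735 in shSRC1. The groups overlapped at shSRC1 replicate 4 and shNT replicate 1. TFAM fell by 0.29 on the log2 scale (SE 0.09, limma adjusted p = 0.0386), but the call was lost in 5 of 8 settings that leave out 1 library (up to 0.11) and after correction for GC content and transcript length (-0.14, adjusted p = 0.0919) or with no filter (0.0621). The mitochondrial RNA polymerase gene POLRMT had 0.19 (adjusted p = 0.193). Of 8 tested regulators of mitochondrial biogenesis, 1 rose and 1 fell. PPARGC1A, the PGC-1 alpha coactivator gene, held 215, 203, 250 and 187 in shNT and 284, 339, 347 and 411 in shSRC1. Its groups were separate, and shNT replicate 3 was here the highest shNT library. PPARGC1A rose from 214 ± 26.5 to 345 ± 51.9 (n = 4 each), by 0.68 (SE 0.14, limma adjusted p = 0.0029). The related PPRC1 fell by 0.27 on the log2 scale (adjusted p = 0.0477), a call lost in 5 of 8 settings that leave out 1 library (up to 0.125), with upper-quartile scaling (0.0584) and with no filter (0.0737), and, like TFAM, it lies on chromosome 10. NRF1, GABPA and ESRRA did not pass, at 0.11, -0.19 and 0.05 (adjusted p = 0.366, 0.195 and 0.734).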

How the data were processed

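The authors deposited 1 table of 63677 genes by 8 libraries. Its signal values were made by the authors from read counts divided by a size factor of each library, as the file's values show: 100% were whole multiples of a library-specific step within 0.001 reads. The build listed is GRCh37, and the tools listed are HTSeq 0.6.1, TopHat2 2.0.12, DESeq and DESeq2, per the submitters' processing notes. How reads were counted, and on which annotation, is not given in the sources used here. Per the labels' protocols, RNA was captured with oligo(dT). Groups came from the shRNA label.

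A minimum of 10 normalized reads in 4 or more libraries was set, and the genes that met it were tested with limma 3.58.1 in R 4.3.3 (mean-variance trend, robust) on log2(value + 1), two-sided, with Benjamini-Hochberg adjustment over 19559 genes and a threshold of 0.05. Fold changes on that scale understate the change of low genes. The members and lists were chosen with earlier results of these data known. Genes named were all mitochondrial members, called nuclear members (up to 5 per complex and direction) with each complex's extremes, CYCS, CYC1, isoform sets, core complex I genes, up to 4 called genes per list, regulators and NCOA1, NCOA2 and NCOA3. UQCR10, NDUFB8, COX16, SCO2, ATP5C1, ATP5D, ATP5E, the luminal markers, COL1A1, MS4A1 and rows below the filter were named beyond that rule after their values were seen. Alternatives were edgeR 4.0.16 scalings and quasi-likelihood test and DESeq2 1.42.0 on the recovered reads, other filters and pseudocounts, a correction for transcript length and GC content (mgcv 1.9.3), a replicate block and libraries left out. Scripts were tested on simulated data. GENCODE 29 on GRCh38 gave chromosomes and transcript lengths (93 of 93 tested members matched). The per kb levels use 1 annotated transcript per gene and are approximate. Promoter windows came from RefSeq (GRCh38.p14). The floor for a count of 0 is 3 reads and covers counting error only. The values of 1 called nuclear member are not reported here, though it is counted.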

Additional observations from a re-analysis of the deposited data

Results flagged for a closer look

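Of 114 groups of 4 libraries examined, 12 held a library far from its 3 neighbours (gap over range above Dixon's 95% critical value), where chance gives about 5%. The value that stood off was in shNT replicate 3 for 5 members: ATP5SL at 2130.7 normalized reads, NDUFS8 at 3436.9, ATP5G1 at 2069.4 and NDUFV1 at 7256.3 were low there, and COX6B2 at 18.568 was high. In shSRC1 replicate 1 NDUFS7 at 2026, MT-CYB at 212330, MT-ND4 at 531130, MT-ND1 at 95168 and MT-CO3 at 324240 were high. ATP5S was low in shSRC1 replicate 2, at 1733.8, and the median of the nuclear complex V members was high in shSRC1 replicate 4, at 0.184 on the log2 scale. Across the libraries, the rank correlation over genes of the deviation with GC content was lowest in shSRC1 replicate 4, at -0.22, and highest in shSRC1 replicate 1, at 0.48. Its part in these values was not tested.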

How the results depend on the processing

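Of the 19 members called, 5 were called in all 23 alternatives: ATP5A1, COX7C, UQCRFS1, ATP5B and MT-CO1. The 17 nuclear members called higher became 11 with scaling by reads outside the mitochondrial genome (13.8% of the 80, where 9.65% of all genes tested were higher), 9 without shNT 3 and shSRC1 2 (11.2%, background 9.74%), 6 without shNT 1 and 3 (background 8.04%), and 4 to 27 with 1 library left out (backgrounds of 1648 to 2525 genes). The 0 nuclear members called lower (edgeR 0, DESeq2 0) became 1 with upper-quartile scaling, 3 with scaling by reads outside the mitochondrial genome, 1 without shNT 3 and shSRC1 2, 1 without shNT 1 and 3, and 0 to 1 with 1 library left out. The 2 mitochondrial members called lower became 5 with scaling by reads outside the mitochondrial genome, 1 without shNT 3 and shSRC1 2, 1 without shNT 1 and 3, and 1 to 2 with 1 library left out. For the pathway lists, the 12 genes called higher became 19 with upper-quartile scaling (background 13.2%) and 9 to 19 with 1 library left out (backgrounds of 8.53% to 13%). The 4 called lower became 8 with scaling by reads outside the mitochondrial genome, 1 with no filter, 2 without shNT 3 and shSRC1 2, 2 without shNT 1 and 3, and 0 to 4 with 1 library left out. Of all genes, 11.2% were called lower in the main setting and 4.77% with no filter. With scaling by reads outside the mitochondrial genome 15.6% of all genes were called lower, so the background rose there too. It was 8.12% without shNT 3 and shSRC1 2 and 7.27% without shNT 1 and 3. Upper-quartile scaling called 2276 genes lower, and the settings with 1 library left out called 1450 to 2251 genes lower. The cause was not tested.

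With the replicate number as a block, 29 nuclear members were higher (36.2% of the 80) and 1 lower, 3 mitochondrial members were lower (23.1% of the 13), beside 16.8% of all genes higher and 15.9% lower, and 20 list genes were higher and 7 lower. The correlations of same-numbered libraries were 0.24, -0.01, 0.13 and 0.14, and 3 of the 4 shNT libraries correlated best with the shSRC1 library of their own number, a hint from the data. Replicate 2 of shNT did not, and the labels name no shared culture or day, so the numbers were not taken as pairs.

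Directions turned in small log2 fold changes that passed no test. Without shNT 1 and 3, NRF1 was at -0.0023, NDUFS7 at -0.028, COX7A2L at -0.0080, ATP5G3 at -0.071, ATP5G1 at -0.087, CYCS at -0.013, ESRRA at -0.046, CYC1 at -0.068, ATP5J2 at -0.15, MT-ND6 at 0.092 and MT-ND5 at 0.037. Without shNT 3 and shSRC1 2, NCOA2 was at 0.0067, ATP5G1 at -0.054, ESRRA at -0.035, CYC1 at -0.014 and ATP5J2 at -0.11. With scaling by reads outside the mitochondrial genome, ATP5G1 was at -0.025, CYCS at -0.0054, ESRRA at -0.026 and ATP5J2 at -0.055. With correction for length and GC content, alone or with the replicate block, ATP5G1 was at -0.023 and ATP5J2 at -0.012. By edgeR and DESeq2, ATP5J2 was at -0.0041 and -0.0028. With 1 library left out, values ran from -0.011 to 0.20 for ATP5G3, -0.069 to 0.11 for ATP5G1, -0.040 to 0.092 for ESRRA, -0.023 to 0.20 for CYC1 and -0.11 to 0.10 for ATP5J2. COX6B2 had no value where it failed the filter. Depth limits the isoform genes that failed the filter.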
